A study of Mus musculus with 40 samples.

Results

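The genes described here carry out glucose uptake, glycolysis, lactate export and steps of the pentose phosphate pathway, together with close regulators of these steps. The list of 36 mouse genes was made by function, with earlier results of these data known. A gene was measured where an array carried a probe set annotated to that gene alone, and the probe set with the highest mean signal stood for the gene. By this rule 33 of the 36 were measured on the sorted T cell arrays, among 18194 genes, and 32 on the ligand arrays, among 17097 genes (18606 genes in all). Gpi1, Eno1 and G6pdx were not analysed here on either array type, and Pgam1 was not analysed on the ligand arrays. Gapdh on the sorted T cell arrays was read by an Affymetrix control probe set at its 3' end.

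The 40 arrays, all of CD4 T cells of the C57Bl/6 strain, come from 2 experiments. The sorted T cell experiment used Foxp3-GFP reporter mice, with a flow cytometric sort and then 48 h of culture. The source label of these 8 arrays reads bone marrow, and no other label of theirs names a tissue. Activated regulatory T cells (Treg; CD4+ CD45RBlow GFP+, with antibodies to CD3 and CD28) have 3 arrays, resting Treg (the same gate, unstimulated) have 3, and resting conventional T cells (CD4+ CD45RBhi GFP-, unstimulated) have 2. In the ligand experiment, CD4+ CD45RBlo YFP+ Treg from spleen and lymph nodes received plate-bound anti-CD3 (1 µg/mL), anti-CD28 in solution (2 µg/mL), human IL-2 (100 U/mL) and either an immobilised fusion protein of semaphorin-4a (Sema4a-Ig) or mouse IgG1 (10 µg/mL). The culture time is not given in the labels. These Treg were Nrp fl/fl x Foxp3-YFP-iCre (KO) or Foxp3-YFP-iCre alone (WT), so both genotypes carry the Cre, which is driven from Foxp3, and KO refers to neuropilin-1 in Foxp3-expressing cells only. Each of the 4 combinations has 8 arrays, in 16 pairs of 1 Sema4a-Ig and 1 IgG1 array with neighbouring title codes. In WT pair 2 the Sema4a-Ig array has a title that reads WT and a genotype label that reads Nrp fl/fl, and the title was followed. Nothing in the labels ties replicates to separate animals or cultures, so the p-values reflect the spread among these arrays, and that spread may be technical.

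The sort labels were checked against marker genes. The mean of 9 Treg markers lay between 11.05 and 11.19 on the log2 scale in activated Treg, between 10.7 and 10.92 in resting Treg, and between 5.86 and 6.02 in conventional T cells. In the ligand experiment the Foxp3 probe set averaged 3.55, within the range of 23 nonspecific controls (up to 3.95), so that probe set did not check the label there. The other Treg markers of the list lay above these controls, from 5.21 (Entpd1) to 11.11 (Ikzf2). That experiment has no conventional T cells to set them against. Actb signal at its 3' end exceeded that at its 5' end by 5.87 to 6.17 log2 units in activated Treg replicates 1 and 2 and resting Treg replicate 1, and by 1.24 to 2.67 in the other 5 arrays. A large 3' excess is a sign of shortened RNA, and the 3 arrays are called high-excess arrays below. They carry the 3 lowest title codes of the 8 arrays, so the excess and the order of the codes cannot be told apart. The mean of 16 myeloid marker genes ran from 5.88 to 7.40 in activated Treg, from 5.59 to 6.30 in resting Treg and from 5.36 to 5.41 in conventional T cells. Within that list S100a8, S100a9, Lyz1 and Lyz2 averaged 7.21, 6.48, 7.10 and 6.49 in activated Treg, 5.17, 5.11, 6.16 and 5.22 in resting Treg, and 4.42, 4.34, 3.77 and 4.54 in conventional T cells. Mpo, Elane and Itgam of the same list were low in all 3 groups (4.18 to 5.22). The mean of every pair of ligand arrays had been made equal before deposit, so the level of a gene cannot be compared between genotypes and only the Sema4a-Ig minus IgG1 difference of a pair carries information.

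Glycolysis splits glucose into pyruvate. Glucose enters through carriers such as GLUT1, is trapped by hexokinases, and is committed to the pathway by phosphofructokinase. Pyruvate is then reduced to lactate by lactate dehydrogenase and exported by monocarboxylate transporters, or enters mitochondria unless the pyruvate dehydrogenase kinases block that entry. T cells raise glycolysis when their antigen receptor and CD28 are engaged, in part through HIF-1 and MYC, and Treg are known for relying on it less than effector T cells do.

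Resting Treg were compared with resting conventional T cells to ask how the pathway differs between the 2 sort gates without stimulation. The gates differ in both GFP and CD45RB, so the parts of these cannot be told apart. Resting Treg had more RNA of the glucose carrier Slc2a1, of Aldoc, of Ldhb and of Hif1a, and less of the lactate exporter Slc16a1 and of the kinase Pdk1. The other 27 measured members did not pass the test, among them every member of lower glycolysis and the pentose phosphate pathway. Of 33 members 6 passed an adjusted p of 0.05 in limma, when 5.51% of all genes did, 4 higher and 2 lower in resting Treg (3.86% and 1.65% of all genes). The median log2 difference of the 33 was -0.07, against 0.01 over all genes.

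Slc2a1, which encodes the carrier GLUT1, had log2 signals of 10.52, 10.43 and 10.67 in resting Treg, against 9.13 and 9.35 in conventional T cells. The groups did not overlap, and resting Treg stood higher by 1.30 ± 0.18 (SE; limma adjusted p = 0.00496), which is 2.46-fold. A second probe set of Slc2a1 was also called (1.07), and the remaining one was at 0.02.

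Aldoc, an aldolase best known from brain, had 7.10, 6.72 and 8.14 in resting Treg, against 5.44 and 5.46 in conventional T cells. All resting Treg arrays lay above both conventional arrays, and the difference was 1.87 ± 0.37 (SE; limma adjusted p = 0.023). The second Aldoc probe set was dim and differed by 0.11.

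Ldhb, the lactate dehydrogenase subunit of heart and other oxidative tissue, had 10.16, 10.12 and 10.22 in resting Treg, against 8.74 and 8.92 in conventional T cells. The gap of 1.33 ± 0.14 (SE; limma adjusted p = 0.00136) far exceeded the spread within either group. The 3 other Ldhb probe sets differed by 0.13 to 0.47 in the same direction and none was called.

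Hif1a, the oxygen-regulated subunit of HIF-1, had 12.72, 12.81 and 12.93 in resting Treg, against 11.45 and 11.47 in conventional T cells. It was 1.35 ± 0.18 higher in resting Treg (SE; limma adjusted p = 0.00447), with no overlap. Of its 4 probe sets 3 were called higher.

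Slc16a1, which encodes the lactate carrier MCT1, had 6.50, 5.98 and 6.55 in resting Treg, against 8.20 and 7.88 in conventional T cells. Here the order was the opposite one, with resting Treg lower in all arrays and a difference of -1.70 ± 0.24 (SE; limma adjusted p = 0.00509). The second, dim probe set of Slc16a1 differed by -0.23.

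Pdk1, a kinase that shuts pyruvate out of the citric acid cycle, had 11.35, 11.28 and 11.18 in resting Treg, against 12.50 and 12.69 in conventional T cells. Resting Treg were lower in all arrays, by -1.32 ± 0.20 (SE; limma adjusted p = 0.00822), and 3 of the 4 Pdk1 probe sets were called lower. The other kinases, Pdk2, Pdk3 and Pdk4, had differences of -0.17, -0.17 and -0.03 and did not pass.

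**Figure D1:**
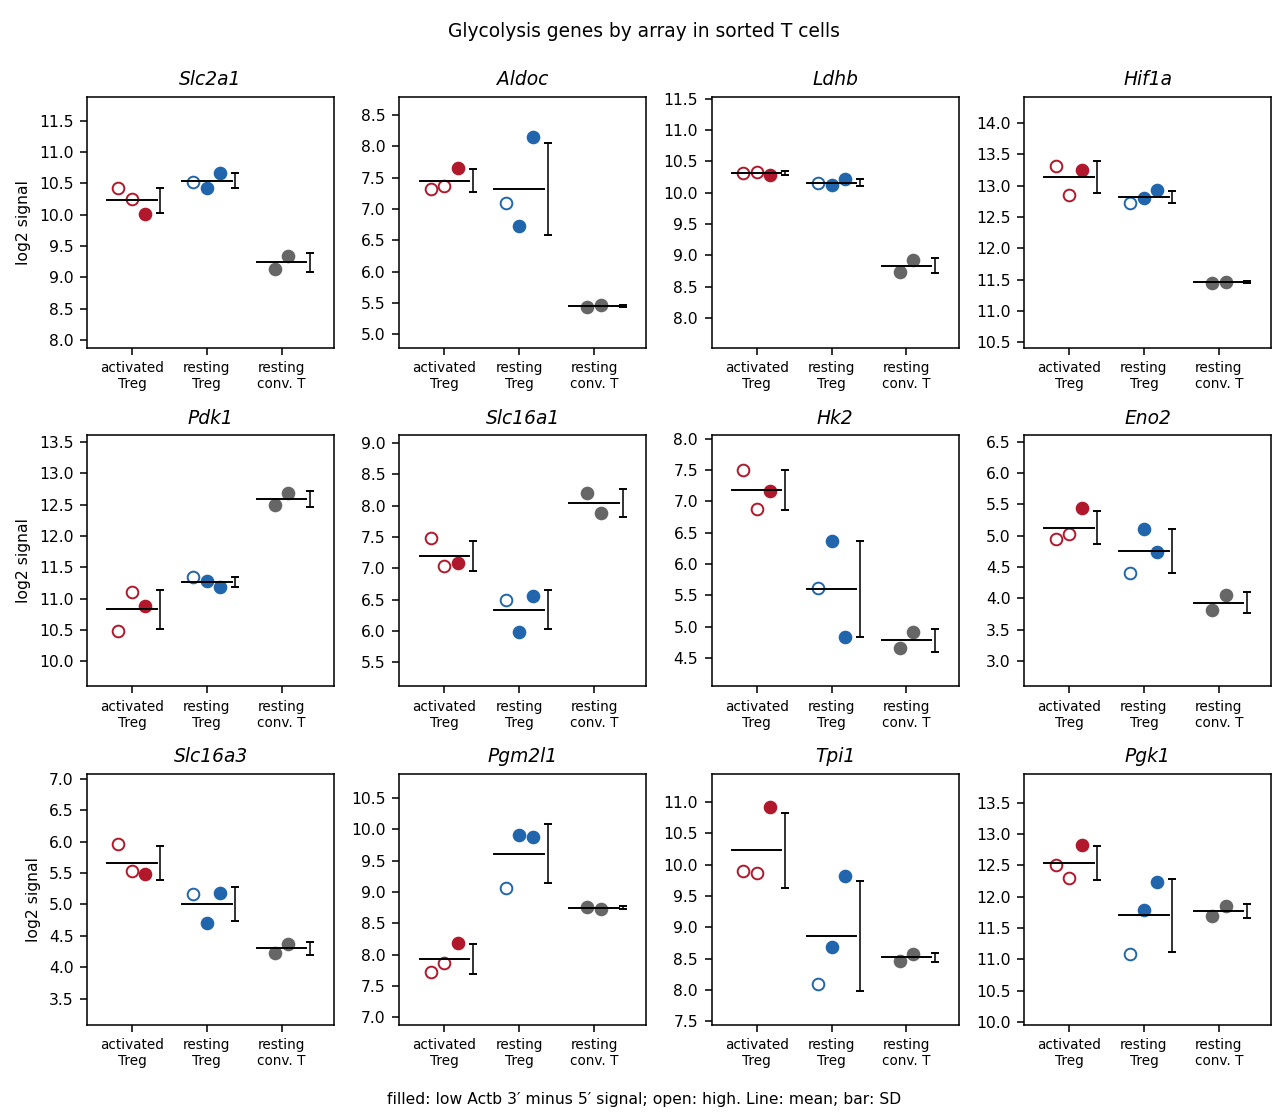
Log2 signal of 12 glycolysis genes by array in activated Treg, resting Treg and resting conventional T cells. Each point is 1 array (open for the 3 high-excess arrays), the line is the group mean and the bar the SD. Slc2a1, Ldhb and Hif1a lie higher and Pdk1 lower in both Treg groups than in conventional T cells, Hk2 is highest in activated Treg (6.87 to 7.50), and Pgm2l1 is lower in activated (7.72 to 8.19) than in resting Treg (9.07 to 9.91).

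Slc2a1, Hif1a and Pdk1 were each called by more than 1 probe set, and their promoters are printed to show the sequence motifs that HIF-1 and MYC are known to bind. Each runs 5' to 3' on the gene's strand, from 250 bases before to 50 after the RefSeq start in assembly GRCm38.p6. Capitals mark ACGTG and GCGTG, the core of the hypoxia response element, on either strand (as CACGT and CACGC on the other), and CACGTG, the E-box, which contains ACGTG. The promoter of Slc2a1 is chr4:119108495-119108794 (+), that of Hif1a chr12:73907617-73907916 (+) and that of Pdk1 chr2:71872974-71873273 (+).
Slc2a1: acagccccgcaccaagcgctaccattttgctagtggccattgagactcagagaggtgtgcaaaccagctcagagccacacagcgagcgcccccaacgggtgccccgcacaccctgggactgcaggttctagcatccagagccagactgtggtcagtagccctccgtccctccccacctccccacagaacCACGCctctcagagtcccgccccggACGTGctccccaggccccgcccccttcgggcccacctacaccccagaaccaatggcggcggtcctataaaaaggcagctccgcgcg
Hif1a: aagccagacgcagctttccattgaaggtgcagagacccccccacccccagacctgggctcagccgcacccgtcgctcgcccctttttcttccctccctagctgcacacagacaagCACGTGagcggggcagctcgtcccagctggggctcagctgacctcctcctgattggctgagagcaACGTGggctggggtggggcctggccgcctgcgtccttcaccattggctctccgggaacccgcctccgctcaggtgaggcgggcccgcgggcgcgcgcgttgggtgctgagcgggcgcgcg
Pdk1: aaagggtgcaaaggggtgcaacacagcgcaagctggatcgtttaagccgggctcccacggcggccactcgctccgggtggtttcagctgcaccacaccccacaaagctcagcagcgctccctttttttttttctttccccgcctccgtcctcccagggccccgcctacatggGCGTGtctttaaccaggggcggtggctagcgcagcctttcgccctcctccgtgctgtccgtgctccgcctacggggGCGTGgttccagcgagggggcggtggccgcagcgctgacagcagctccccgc
The E-box appears in the Hif1a promoter, and the Slc2a1 and printed Pdk1 promoters hold only hypoxia response cores. Pdk1 has another listed promoter, chr2:71874654-71874953 (+), which is not printed and holds neither motif. Of the 36 members 34 had a promoter sequence, and 28 of them (82.4%) held ACGTG or GCGTG on either strand in the promoter listed first, against 43.8% of the first-listed promoters of 27025 genes and 55.6% of those of 14369 genes represented on the sorted T cell arrays. CACGTG was present in 7 of the 34 (20.6%), against 7.2% and 9.0%. The GC box GGGCGG, which holds a CpG as these motifs do, was present in 70.6% of the members, against 35.9% and 54.1%. Median GC content was 62.2% in the members, 52.7% in all promoters and 58.7% in those of represented genes. A match is a stretch of letters and does not show that a factor binds there.

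Activated Treg were compared with resting Treg to ask what 48 h with anti-CD3 and anti-CD28 did to the same genes. Pgm2l1, which makes glucose 1,6-bisphosphate in brain, was the 1 member of 33 that passed, and it was lower in activated Treg. No glycolytic enzyme, glucose carrier or lactate carrier passed, although the estimates of Hk2, Tpi1, Slc16a1, Pgk1 and Slc16a3 were positive with unadjusted p under 0.05. Over all genes 0.742% passed (135 genes), and 0.22% passed as lower, so few genes of any kind were called between these groups. The stimulation itself was visible. Each of 12 T cell activation markers had a higher mean in activated than in resting Treg, and 10 of them were called. The mean of the 12 was 10.27 to 10.95 in activated Treg, against 7.27 to 7.30 in resting Treg. The members' median difference was 0.14, with 22 above and 11 below 0, against a median of 0.00 over all genes.

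Pgm2l1 had log2 signals of 7.72, 7.87 and 8.19 in activated Treg, against 9.07, 9.91 and 9.87 in resting Treg. All activated arrays lay below all resting arrays, with a difference of -1.69 ± 0.25 (SE; limma adjusted p = 0.0285), a 3.22-fold lower signal. Conventional T cells had 8.76 and 8.73, between both Treg groups. The other 2 Pgm2l1 probe sets were also lower in activated Treg, by -0.76 and -1.10, and were not called. The call was kept in 7 of 16 alternatives. It was lost without activated Treg replicate 1, 2 or 3, resting Treg replicate 2, or conventional replicate 1 or 2, with the mean of the 3 probe sets, on the arrays without a high 3' excess, and with sets of neighbouring title codes as a block. The adjusted p reached 0.107, and the difference lay between -1.96 and -1.18 throughout.

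Hexokinase 2, the inducible hexokinase that traps glucose, had 7.50, 6.87 and 7.17 in activated Treg, against 5.61, 6.37 and 4.83 in resting Treg. The groups did not overlap, but resting Treg were widely spread (SD 0.77), and the Hk2 difference of 1.57 ± 0.36 (SE) had a limma adjusted p of 0.113. Tkt, transketolase of the pentose phosphate pathway, had 12.63, 12.06 and 12.54 in activated Treg, against 12.13, 12.25 and 12.77 in resting Treg, so the ranges overlapped over most of their length.

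The high-excess arrays moved with many of the members. Among the Treg arrays, 25 of 33 members (75.8%) were lower in the 3 high-excess arrays than in the other 3, with a median of -0.30, while over all genes 48.9% were lower, with a median of 0.01. Ldha, the main lactate dehydrogenase subunit, shows the pattern: its activated Treg arrays were at 11.73, 11.98 and 13.19 and its resting Treg arrays at 11.57, 12.51 and 12.66. The array without a high excess was the highest in activated Treg, and the array with it was the lowest in resting Treg.

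Activated and resting Treg were therefore also compared within each class of arrays, 2 against 1 in the high class and 1 against 2 in the other, and with the class as a term in the fit. Triose phosphate isomerase (Tpi1) was higher in activated Treg by 1.79 in the high class and by 1.67 in the other, phosphoglycerate kinase (Pgk1) by 1.31 and 0.82, and Gapdh by 0.88 and 1.13. Gapdh was read at its 3' end, where the difference without regard to class was 0.69. The middle and 5' control probe sets of Gapdh differed by 0.33 and 0.05. With the class term, Tpi1 (1.73 ± 0.28, limma adjusted p = 0.0352), Pgk1 (1.06 ± 0.19, 0.0433) and Gapdh (1.00 ± 0.18, 0.0472) passed, and Pgm2l1 stayed called at -1.48 ± 0.14 (adjusted p = 0.00719). These 3 genes were singled out after their values were seen. That fit called 4 of 33 members, 3 higher and 1 lower, when it called 1.75% of all genes (1.19% higher, 0.555% lower). Hk2 differed by 1.57 in each class, with an adjusted p of 0.122, and Pfkp by 0.41 and 1.32. The classes gave opposite signs for 6 of the 33 members: Slc2a3, Pfkl, Pfkm, Bsg, Pgm2 and Taldo1. Pgm2 was at -0.23 in the high class and 0.66 in the other, Pfkm at 0.10 and -0.68, and Pfkl at -0.30 and 0.37.

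**Figure D2:**
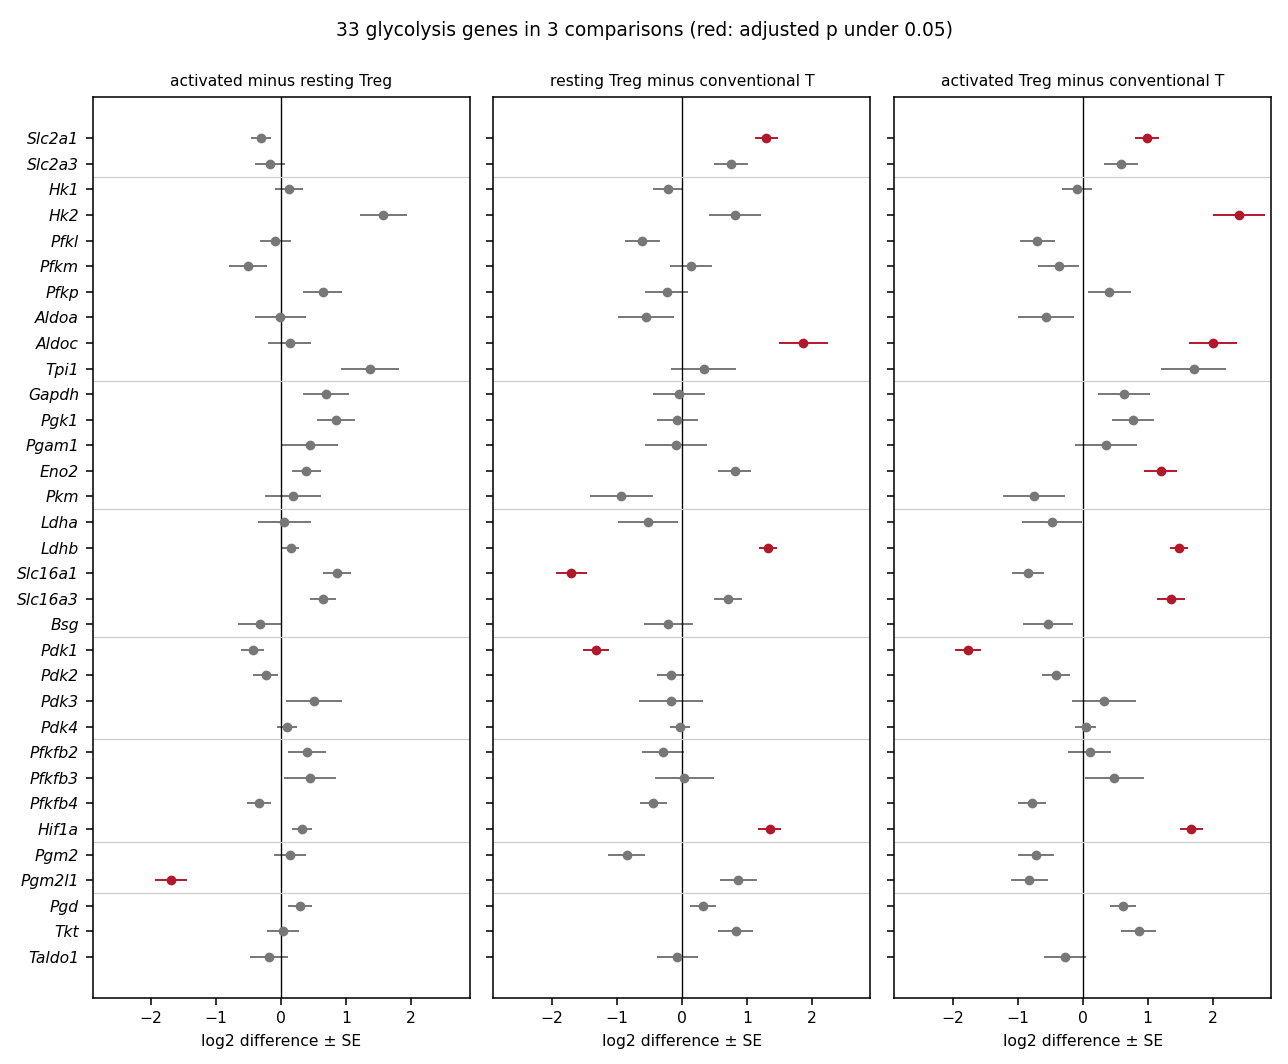
Log2 difference of each of the 33 measured members (± SE) in the 3 comparisons of sorted T cells, with thin lines between role groups from glucose uptake at the top to the pentose phosphate pathway at the bottom. Red points passed a limma adjusted p of 0.05: 1 for activated minus resting Treg, 6 for resting Treg minus conventional T cells and 8 for activated Treg minus conventional T cells.

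Activated Treg and resting conventional T cells differ in both sort gate and stimulation, and this comparison shares its arrays with the other comparisons of sorted cells. Slc2a1, Hk2, Aldoc, Eno2, Ldhb, Slc16a3 and Hif1a were higher in activated Treg and Pdk1 was lower, so that 8 of 33 members passed while 9.7% of all genes did. Members called higher numbered 7 (5.93% of all genes) and 1 was lower (3.77% of all genes), and the median of the 33 was 0.33, against 0.02 over all genes. The balance of directions depended on the processing. With each array centred on its median 7 were higher and 4 lower, when 11.0% of all genes were called (4.74% higher, 6.22% lower). With array weights 11 were higher and 12 lower, the lower ones including Aldoa, Pkm and Ldha, when 32.4% of all genes were called (15.6% higher, 16.8% lower).

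Hk2 had 7.50, 6.87 and 7.17 in activated Treg, against 4.65 and 4.91 in conventional T cells, a difference of 2.40 ± 0.40 (SE; limma adjusted p = 0.00799) or 5.26-fold. Of the 33 members it had the largest positive difference in this comparison, and resting Treg lay between at 4.83 to 6.37.

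Slc16a3, the lactate exporter MCT4 of highly glycolytic cells, had 5.97, 5.54 and 5.48 in activated Treg, against 4.23 and 4.37 in conventional T cells. It was higher by 1.36 ± 0.22 (SE; limma adjusted p = 0.00698), and the arrays of resting Treg (5.16, 4.70 and 5.18) again lay between both groups. Slc16a1, which encodes the other lactate carrier, had 7.48, 7.04 and 7.09 in activated Treg, below the conventional arrays (8.20 and 7.88) but short of the threshold (-0.84 ± 0.24, limma adjusted p = 0.0657).

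Eno2, an enolase best known from neurons, was dim in all groups, at 4.94, 5.03 and 5.44 in activated Treg, against 3.81 and 4.05 in conventional T cells (1.20 ± 0.25, limma adjusted p = 0.0185). The groups did not overlap, and the arrays of resting Treg were at 4.41, 5.10 and 4.74.

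Slc2a1 was at 10.42, 10.25 and 10.02 in activated Treg and higher than in conventional T cells by 0.99 ± 0.18 (SE; limma adjusted p = 0.011). Its signal in activated Treg was not above that in resting Treg (10.43 to 10.67), where the difference was -0.31 with an adjusted p of 0.542. Against conventional T cells the other Slc2a1 probe sets differed by 0.68, which was called, and by -0.30, which was not. The call of Slc2a1 was lost with the mean of its probe sets.

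Aldoc was at 7.32, 7.36 and 7.65 in activated Treg (2.00 ± 0.37, limma adjusted p = 0.0114). Ldhb was at 10.31, 10.33 and 10.28 (1.48 ± 0.14, adjusted p = 0.000594), Hif1a at 13.31, 12.85 and 13.25 (1.67 ± 0.18, adjusted p = 0.000978) and Pdk1 at 10.49, 11.11 and 10.89 (-1.76 ± 0.20, adjusted p = 0.0013). None of the 4 overlapped with conventional T cells, and the 2 Treg groups overlapped for Aldoc and Hif1a. The second Aldoc probe set differed by -0.03 from conventional T cells, and the other Ldhb probe sets by 0.30, 0.48 and 0.54, without a call. Further probe sets of Hif1a (2.48 and 3.03) and Pdk1 (-2.07 and -2.63) were called.

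The remaining members stayed below the threshold in all 3 comparisons of sorted cells. Of the central enzymes, Aldoa, Pkm and Ldha had lower estimates in both Treg groups than in conventional T cells (-0.47 to -0.93) and none passed. Tkt had the largest estimates of the pentose phosphate group, 0.86 in activated and 0.83 in resting Treg over conventional T cells (arrays of conventional T cells at 11.34 and 11.76), with adjusted p of 0.0908 and 0.136. Pdk4 was dim throughout (3.54 to 3.90).

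Both conventional T cell arrays belong to the class without a high 3' excess, so class and sort gate overlap in part. On the 5 arrays without a high excess, 6 members were called for resting Treg minus conventional T cells (5.35% of all genes) and 5 for activated Treg minus conventional T cells (4.8% of all genes), a choice of arrays made after the data were seen. With the class as a term these counts were 9 and 12, when 8.98% and 9.87% of all genes were called. With sets of neighbouring title codes (those that differ only in the last digit) as a block, although no label calls them sets, the counts were 10 and 14 (10.9% of all genes in each), and 0 for activated minus resting Treg (0.401%). Leaving out 1 conventional array lowered the count of 6 to 1 (without replicate 1) or 3 (without replicate 2), and that of 8 to 3 in either case. Of the 16 myeloid markers, 2 were called higher in activated Treg (Cybb and Lyz1) and 1 in resting Treg (Cybb), each against conventional T cells. Of 9 B cell markers, 2 were called higher in activated and 3 in resting Treg. The mean of 9 MHC class II and dendritic cell markers was 5.73 to 6.44 in activated Treg, 5.65 to 6.72 in resting Treg and 5.11 in conventional T cells. That of 10 CD8 and NK cell markers was 5.03 to 5.19, 5.09 to 5.24 and 5.78 to 5.99 in the same order. The part of all these markers in the members' differences was not tested, and in bulk arrays fewer cells of a type and less RNA per cell cannot be told apart.

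Other genes of the pathway were taken from 9 lists of 113 genes, 105 of them measured on these arrays. Between activated and resting Treg none of the 105 passed. Between resting Treg and conventional T cells 7 passed (6.67%, near the 5.51% of all genes), namely Arrdc4, Egln3, Gyg, Ndrg1 and Phkb higher, and Myc and P4ha2 lower. Egln3, an oxygen sensor that HIF-1 induces, was 1.90 ± 0.37 higher, and Ndrg1, another gene induced in low oxygen, 1.69 ± 0.18 higher (limma adjusted p = 0.0215 and 0.00135). Gyg, the primer of glycogen synthesis, was 1.68 ± 0.16 higher (0.000753), and Phkb, a subunit of phosphorylase kinase, 1.10 ± 0.19 (0.0133). P4ha2, a collagen prolyl hydroxylase that is also induced in low oxygen, was lower (-1.15 ± 0.19, 0.0111), as was Myc (-2.40 ± 0.52, 0.0354).

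Between activated Treg and the same conventional arrays 16 of the 105 passed (15.2%, when 9.7% of all genes did), 8 in each direction. Egln3 (3.04), Gyg (2.51), Eno3 (1.78), Arrdc4 (1.76), Phkb (1.31), Rpia (1.20), Ndrg1 (1.16) and Rbks (0.83) were higher, and Epas1 (-2.81), Prkaa1 (-1.33), Pygm (-1.32), Adpgk (-1.17), P4ha2 (-1.13), Stk11 (-0.90), Shpk (-0.79) and Akt1 (-0.62) were lower. Epas1 encodes HIF-2 alpha, Rpia acts within the pentose phosphate pathway, and Rbks acts at the entry of ribose into it. Prkaa1 and Stk11 encode the energy sensor AMPK and the kinase that activates it. No carrier of hexoses or monocarboxylates outside the members passed in any of these comparisons.

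In the ligand experiment all Treg were stimulated, and the comparison asks what Sema4a-Ig added to that. In KO Treg no member passed. In WT Treg, Hk2, Pfkl and Slc16a1 fell with Sema4a-Ig, by 1.34 to 1.48-fold, and no member rose. The KO minus WT difference passed for none. With Sema4a-Ig, 28 of 32 members had a negative mean difference in KO and 22 of 32 in WT. The members' medians were -0.10 in KO and -0.11 in WT, when those over all genes were -0.02 and -0.01. In KO 0.0% of all genes passed in limma, 1787 genes (10.5%) and 5 of the 32 members had an unadjusted p under 0.05, and the smallest adjusted p among members was 0.378. In WT 3 members (all lower) were called when 5.79% of all genes were (2.91% higher, 2.88% lower), and 14 of the 32 (43.8%) had an unadjusted p under 0.05, as did 21.1% of all genes.

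The promoters of the 3 genes that fell together are shown on the same terms as above. That of Hk2 is chr6:82774405-82774704 (-), that of Pfkl chr10:78009758-78010057 (-) and that of Slc16a1 chr3:104638414-104638713 (+).
Hk2: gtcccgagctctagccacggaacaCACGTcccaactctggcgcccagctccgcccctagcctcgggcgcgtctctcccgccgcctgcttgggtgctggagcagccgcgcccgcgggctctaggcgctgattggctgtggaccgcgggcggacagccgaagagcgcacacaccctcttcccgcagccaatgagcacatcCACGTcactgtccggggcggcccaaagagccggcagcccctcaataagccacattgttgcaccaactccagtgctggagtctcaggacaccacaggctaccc
Pfkl: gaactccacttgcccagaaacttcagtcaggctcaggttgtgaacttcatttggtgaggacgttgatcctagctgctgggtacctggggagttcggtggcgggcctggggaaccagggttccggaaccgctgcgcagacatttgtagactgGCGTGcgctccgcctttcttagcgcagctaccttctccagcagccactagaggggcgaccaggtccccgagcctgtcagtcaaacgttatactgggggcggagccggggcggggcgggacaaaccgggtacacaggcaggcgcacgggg
Slc16a1: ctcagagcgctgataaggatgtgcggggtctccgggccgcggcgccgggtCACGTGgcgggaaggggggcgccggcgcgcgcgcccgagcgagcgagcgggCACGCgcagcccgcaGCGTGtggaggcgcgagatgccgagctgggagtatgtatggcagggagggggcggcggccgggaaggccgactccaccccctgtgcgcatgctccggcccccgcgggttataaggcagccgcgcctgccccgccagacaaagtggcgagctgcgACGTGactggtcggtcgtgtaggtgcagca
The Slc16a1 promoter holds an E-box, the Hk2 promoter a pair of ACGTG cores on the other strand, and the Pfkl promoter a single GCGTG.

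Hk2 differences in the 8 KO pairs were -0.10, -0.26, -0.72, -0.23, -0.03, -0.27, 0.09 and -0.20, and in the 8 WT pairs they were -0.31, -0.24, -1.54, -0.21, -0.21, -0.27, -0.50 and -0.33. Hk2 was lower with Sema4a-Ig in 8 of 8 WT pairs and 7 of 8 KO pairs, and replicate 3 stood far out in both genotypes. The mean was -0.22 ± 0.12 in KO (SE; limma adjusted p = 0.516) and -0.45 ± 0.12 in WT (adjusted p = 0.0276). Without both replicate 3 pairs the mean was -0.14 ± 0.07 in KO and -0.29 ± 0.07 in WT. The WT value, though smaller, was still called (limma adjusted p = 0.0272). The fit shares its estimate of spread between KO and WT pairs, so this call depends on the KO pairs too. With only WT replicate 3 left out, the WT mean was again -0.29 (± 0.08) and was not called (limma adjusted p = 0.0793).

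Slc16a1 differences were 0.22, -0.69, -0.97, -0.19, -0.31, -0.04, 0.04 and -0.18 in KO pairs, and -1.39, -0.34, -1.32, -0.20, -0.04, -0.27, -0.55 and -0.40 in WT pairs. The lactate carrier was lower with Sema4a-Ig in 6 of 8 KO pairs and in 8 of 8 WT pairs, of which replicates 1 and 3 were by far the lowest. Its mean was -0.27 ± 0.14 in KO (SE; limma adjusted p = 0.507) and -0.56 ± 0.14 in WT (adjusted p = 0.0235). Without both replicate 3 pairs the WT mean of -0.45 ± 0.12 was no longer called (adjusted p = 0.0583). The second Slc16a1 probe set, near background, differed by 0.03 in WT.

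Pfkl, the liver-type phosphofructokinase, had differences of -0.24, -0.27, -0.62, -0.22, -0.29, -0.04, -0.12 and -0.28 in KO pairs, and -0.98, -0.78, -0.90, -0.06, -0.49, -0.32, -0.08 and 0.24 in WT pairs. It was lower with Sema4a-Ig in 8 of 8 KO pairs and 7 of 8 WT pairs, and the WT pairs were the more spread (SD 0.17 in KO, 0.44 in WT). The mean was -0.26 ± 0.11 in KO (SE; limma adjusted p = 0.454) and -0.42 ± 0.11 in WT (adjusted p = 0.0281), and -0.36 ± 0.11 in WT without both replicate 3 pairs (adjusted p = 0.0889). The WT call of Pfkl was also lost without WT replicate 1 or 2, and with array weights. Replicate 2 is the WT pair whose Sema4a-Ig array has a title and a genotype label that disagree. The other Pfkl probe sets differed by -0.29 and -0.37 in WT and were not called.

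Pgm2l1 went the other way in KO. Its differences were 0.35, 0.92, 0.42, 0.79, 0.28, 0.16, 0.01 and 0.23 in KO pairs, and -0.54, 0.71, 0.22, 0.29, -0.08, -0.28, -0.06 and 0.16 in WT pairs. All 8 KO pairs were above 0 and WT pairs were split evenly, with means of 0.40 ± 0.11 in KO (SE; limma adjusted p = 0.378) and 0.05 ± 0.11 in WT (adjusted p = 0.854). The other 2 Pgm2l1 probe sets differed by 0.16 and 0.01 in KO, and the one at 0.01 has the design of the probe set that stood for Pgm2l1 in the sorted T cells.

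**Figure D3:**
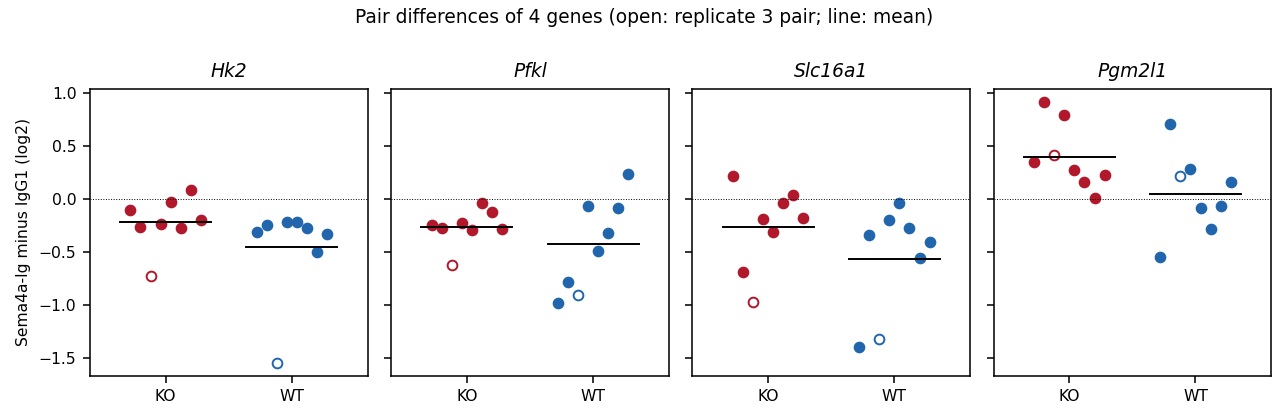
Sema4a-Ig minus IgG1 difference (log2) of Hk2, Pfkl, Slc16a1 and Pgm2l1 in 8 KO pairs and 8 WT pairs, each point 1 pair, open for replicate 3, with a line at the mean. The replicate 3 pair of Hk2 in WT lies at -1.54 and that of Slc16a1 at -1.32, and the KO and WT points overlap for all 4 genes.

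The test of the difference between genotypes called none of the 32 members, nor any of the 17097 genes (0.0%, limma; 1015 genes had an unadjusted p under 0.05). The KO minus WT difference was 0.23 for Hk2 with a 95% interval of -0.12 to 0.59. For Slc16a1 it was 0.30 (-0.13 to 0.72) and for Pfkl 0.16 (-0.17 to 0.50). All intervals take 14 residual degrees of freedom, fewer than limma's p-values do, and so are slightly wider. The intervals of these 3 genes include 0 and also differences as large as the WT effect, so equality of the genotypes is not shown. Pgm2l1 had the largest difference of the 32 members, 0.34 (0.00 to 0.69; unadjusted p = 0.0459, limma adjusted p = 0.83). Without both replicate 3 pairs the KO minus WT differences were 0.15 for Hk2, 0.29 for Slc16a1, 0.15 for Pfkl and 0.36 for Pgm2l1.

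**Figure D4:**
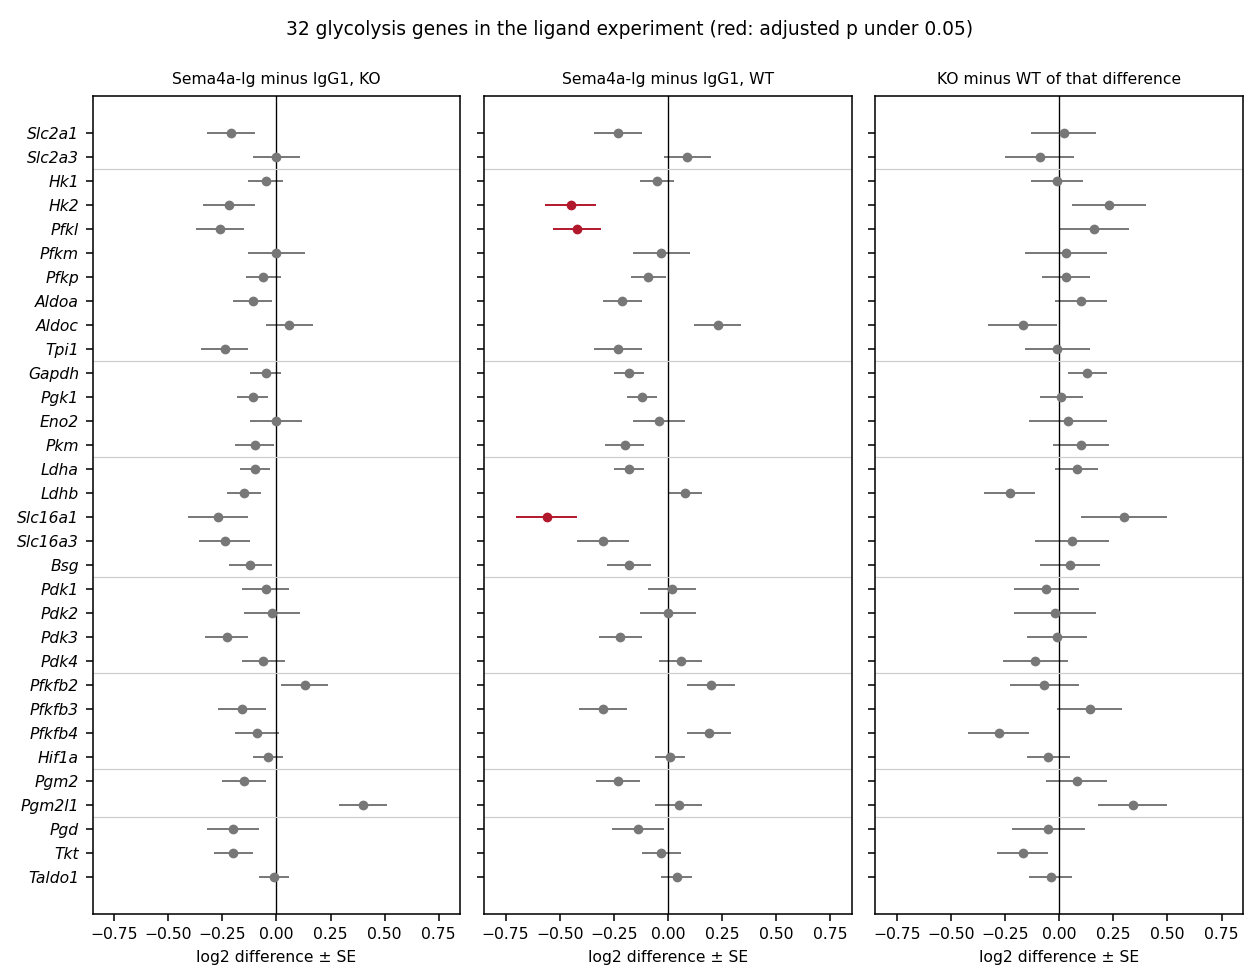
Mean Sema4a-Ig minus IgG1 log2 difference of the 32 members (± SE) in KO and WT Treg, and the KO minus WT difference of these, by role group from glucose uptake at the top. Red marks the 3 genes with a limma adjusted p under 0.05, all in WT (Hk2, Pfkl and Slc16a1), and most grey points of KO and WT lie left of 0.

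Most other members had small negative differences. Glucose uptake was represented by Slc2a1 with -0.21 in KO and -0.23 in WT, neither past the threshold, and by Slc2a3 with 0.00 and 0.09. Of the 8 measured members of upper glycolysis 6 were negative in KO and 7 in WT, and of the 4 of lower glycolysis all 4 in each. Gapdh was below 0 in 8 of 8 WT pairs (-0.35 to -0.03) with a mean of -0.18 ± 0.07 and a limma adjusted p of 0.103. Pfkfb3, whose product activates phosphofructokinase, was also below 0 in 8 of 8 WT pairs, with a mean of -0.30 ± 0.11 and an adjusted p of 0.0998. In the lactate group Ldha was at -0.10 in KO and -0.18 in WT, and Slc16a3 at -0.24 and -0.30, without a call. Hif1a was close to 0 in both (-0.04 in KO, 0.01 in WT). Pdk1, Pdk2 and Pdk4 lay between -0.06 and -0.02 in KO and between 0.00 and 0.06 in WT, and Pdk3 was at -0.23 and -0.22. Tkt of the pentose phosphate group, lower in 7 of 8 KO pairs, was at -0.20 in KO and -0.03 in WT.

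The negative shift was not even over the pairs. The median over the 32 members was -0.40 in KO replicate 3, and -0.37 and -0.42 in WT replicates 1 and 3. In the other 13 pairs it lay between -0.18 and 0.00, while the all-gene median was between -0.05 and 0.01 in all 16. These 3 pairs were also those with the widest spread of differences over all genes, with SDs of 0.47 in KO replicate 3 and of 0.44 and 0.50 in WT replicates 1 and 3, against 0.21 to 0.37 elsewhere. Without both replicate 3 pairs 26 of 32 members were negative in KO and 21 in WT, with medians of -0.05 and -0.09. Hk2 was then the 1 member called in WT, when 2.52% of all genes were (1.61% higher, 0.907% lower). Leaving out WT replicate 3 alone left 0 of 32 called, with limma adjusted p of 0.0793 for Hk2, 0.113 for Pfkl and 0.102 for Slc16a1. Taken as 32 separate arrays without pairing, 5 members were called in KO and 16 in WT, when 10.1% and 25.8% of all genes were. That fit called no member for KO minus WT, when it called 3.1% of all genes.

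**Figure D5:**
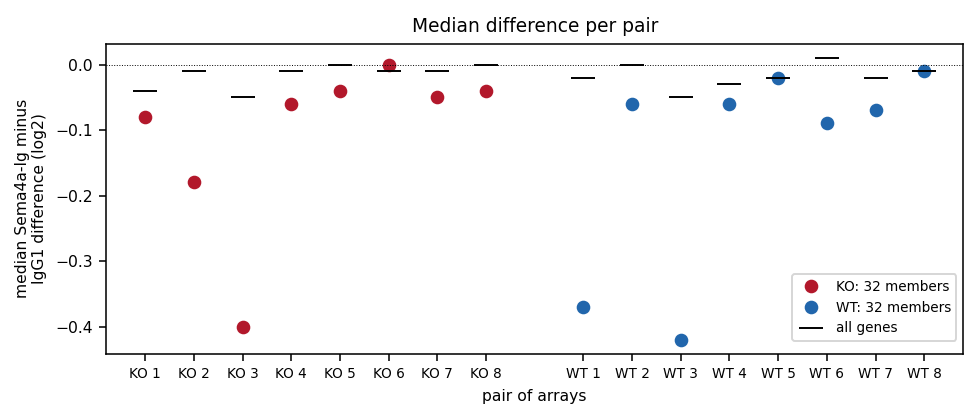
Median Sema4a-Ig minus IgG1 difference (log2) over the 32 members in each of 8 KO and 8 WT pairs (points), and over all 17097 genes (black dashes). KO 3, WT 1 and WT 3 lie between -0.42 and -0.37, the other pairs between -0.18 and 0.00, and the dashes stay within -0.05 and 0.01.

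Other marker genes also differed between Sema4a-Ig and IgG1 arrays. The mean of 16 myeloid markers differed between Sema4a-Ig and IgG1 by -0.19 to 0.37 in KO pairs, with 6 of the 16 higher on average and none called. In WT pairs it differed by -0.20 to 0.56, with 14 of the 16 higher and 3 called (Lyz2, Ctss and Tyrobp). By pair it was -0.085 in KO replicate 3, 0.167 in WT replicate 1 and 0.456 in WT replicate 3, and the highest value, 0.562, was that of WT replicate 7, where the members' median was -0.07. With the myeloid difference of each pair as a covariate, no member and none of the 17097 genes was called in WT (limma; 1865 genes at an unadjusted p under 0.05). Hk2 was then at -0.30 ± 0.14, Pfkl at -0.44 ± 0.14 and Slc16a1 at -0.42 ± 0.17, with adjusted p of 0.44, 0.278 and 0.39. The 12 T cell activation markers, such as Egr2 and Nr4a1, were all lower with Sema4a-Ig on average in both genotypes, and their mean differed by -0.54 to -0.03 in KO pairs and by -0.66 to -0.04 in WT pairs. Of these markers 2 were called lower in WT (Nr4a3 and Irf4) and none in KO. The mean of 9 Treg markers differed by -0.05 to 0.08 in KO pairs and by 0.05 to 0.29 in WT pairs. That of 11 CD8 and NK cell markers differed by -0.69 to 0.09 in KO pairs and by -0.37 to 0.16 in WT pairs. The part of the activation, Treg, CD8 and NK cell markers in the members' differences was not tested.

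Of the 113 other pathway genes 101 were measured on the ligand arrays. In KO none passed, and in WT 5 did (4.95%, when 5.79% of all genes did). Txnip, which restrains glucose uptake, was higher with Sema4a-Ig by 0.77 ± 0.12 (limma adjusted p = 0.000979), Ndrg1 by 0.51 ± 0.10 (0.0058) and the mitophagy receptor gene Bnip3l by 0.31 ± 0.08 (0.026). Gapdhs, a sperm form of Gapdh, was lower (-0.41 ± 0.11, 0.0289), as was Uap1 of the hexosamine pathway (-0.29 ± 0.08, 0.0458). None of the 14 measured MYC, mTOR and AMPK regulators passed in WT or KO.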

How the data were processed

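RNA was measured on Affymetrix arrays, 8 of sorted T cells and 32 of the ligand experiment. The deposited values are log2 signals per probe set, made with RMA and Partek 6.6 per the submitters' processing notes, and any later step, such as one on the pairs, has no description there. In the deposited log2 values of the ligand experiment the mean of each of the 16 pairs was the same at every probe set within 6e-05, with 16 singular values above 1, so pair differences were analysed.

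Gene names of probe sets came from the platforms' annotation, updated through RefSeq (GRCm38.p6). Of 45101 probe sets on the sorted T cell arrays 35890 were listed with a gene (932 with several), and of 45141 on the ligand arrays 29449 (551 with several). Probe sets of several genes or none were left out, and the probe set with the highest mean represented each gene. Pgm2 is Entrez gene 66681. A limma fit took all 8 sorted arrays, leaving 5 residual degrees of freedom, and another the 16 pair differences by genotype, leaving 14. Tests were two-sided (lmFit and eBayes of limma 3.58.1 under R 4.3.3). P-values were adjusted by Benjamini-Hochberg across every gene tested, and 0.05 was the threshold. The fits were tested on simulated data.

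Arrays and pairs were left out in turn. Other alternatives were array weights, the class of 3' excess as a block, the Actb or myeloid difference as a covariate, dim genes or control probe sets left out, the mean of a gene's probe sets, centring, 32 arrays without pairing, and sets of neighbouring title codes as a block of the sorted arrays. The number of arrays limits precision. Array-by-array values are given for members called in at least 1 of 6 comparisons and for the member with the largest estimate of a role group without a call. The members and lists were chosen with earlier results of these data known.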

Additional observations from a re-analysis of the deposited data

Results flagged for a closer look

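Of 64 groups of 8 pair differences checked (32 members in each genotype), 8 held a value far from the other 7. Chance gives about 1 in 20 such groups when they are independent. These groups share the same 16 pairs, so the count of 8 cannot be weighed against that rate. In the replicate 3 pair, Hk2 was at -0.72 in KO and at -1.54 in WT, with the next lowest at -0.27 and -0.50. The same KO pair held the far values of Pfkl (-0.62), Pfkm (-0.99), Ldha (-0.34) and Pdk1 (-0.68). In the replicate 2 pairs, Pgm2 was at -0.56 in KO and Hk1 at 0.57 in WT. The arrays of that WT pair include the one whose title and genotype label disagree.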

How the results depend on the processing

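Without the pairing (32 arrays, no replicate block) 5 members were called for Sema4a-Ig in KO and 16 in WT (2 higher, 14 lower), against 0 and 3 from pair differences. That fit takes paired arrays as independent. In WT 1 member was called without both replicate 3 pairs and 0 with the myeloid covariate. On leaving out 1 pair the count was 0 to 3 (0 without WT replicate 3, 1 without WT replicate 1 or 7, 2 without WT replicate 2). Without WT replicate 2, the pair with the conflicting labels, Pfkl was lost. The labels of the sorted T cells give no replicate numbers. With sets of neighbouring title codes as a replicate block, chosen after seeing the data and leaving 2 residual degrees of freedom, the counts were 0 for activated minus resting Treg, 10 for resting Treg and 14 for activated Treg minus conventional T cells, and Hk2 was lost from the last. In the same order array weights gave 2, 14 and 23 (11 higher, 12 lower), the class block 4, 9 and 12, and the mean of a gene's probe sets 0, 5 and 9. The arrays without a high 3' excess alone, a choice made after seeing the data, gave 0, 6 and 5. Leaving out 1 array gave 0 to 1, 1 to 7 and 3 to 10. Centring gave 11 for activated Treg minus conventional T cells, 7 higher and 4 lower. Pdk1, Hif1a and Ldhb stayed called in all 16 alternatives of activated Treg minus conventional T cells, and no alternative run called a member for KO minus WT. No value changed sign past the threshold. Causes of these changes were not tested. With 2 conventional arrays and dim probe sets for Pdk4 (2.75 on the ligand arrays), Eno2 (3.50), Pdk2 (3.94), Pfkfb4 (4.23) and Pfkfb2 (4.55), small differences may have been missed.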
